A study of Mus musculus with 8 samples.

Results

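The interferon response genes are a list of 43 transcripts known to be switched on by interferons, chosen by gene name. Of these, 39 had a probe set of their own among the 18820 genes compared, and Ifi44, Igtp, Parp9 and Dtx3l were not analysed here. RNA of white adipose tissue was hybridised to 8 one-colour arrays, 1 for each male mouse, after 5 weeks on the high fat diet Research Diets D12492. In 4 mice, called Sel1l-/- as in the labels, a Cre recombinase under the adiponectin promoter had deleted a floxed Sel1l in adipocytes, and 4 wildtype (WT) mice on the same diet were the controls. All were C57BL/6, with C57BL/6N and C57BL/6J mixed. The age of the mice, the fat depot and whether WT mice carried the floxed allele or Cre are not given in the labels. The deletion was directed at adipocytes, while the RNA came from all cells of the tissue.

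Interferons are secreted by cells that detect foreign or misplaced nucleic acid. Type I interferons bind the receptor made of Ifnar1 and Ifnar2, and the kinases Jak1 and Tyk2 then activate a complex that holds Stat2 and Irf9 and binds a DNA element called the interferon-stimulated response element (ISRE). Interferon gamma acts through Ifngr1 and Ifngr2, and its signal reaches genes through another element, the gamma-activated site (GAS). The proteins made in response degrade RNA, block translation, attack intracellular microbes and raise the level of the sensors themselves. Adipocytes, endothelial cells and macrophages of fat all respond to interferons. Sel1l is the adapter of the Hrd1 ubiquitin ligase, which marks misfolded proteins of the endoplasmic reticulum for degradation.

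The promoters of these genes were searched for the letters of both elements, GAAANNGAAA for the ISRE and TTCNNNGAA for the GAS, on both strands. RefSeq windows of 250 bases before to 50 bases after the transcript start (GRCm38.p6) were matched by symbol for 30 of the 39 genes, and not for Ifi27l2a, Oas2, Dhx58, Mx1, Mx2, Zbp1, Parp14, Usp18 and Rtp4. ISRE letters were in a window of 18 of the 30 genes (60%), against 3.99% of all 27025 genes with a window. GAS letters were in 11 of the 30 (36.7%), against 9.55% of all genes. Where both kinds of letters were found, in Gbp5, Gbp7, Bst2, Ifitm3, Oas1a and Eif2ak2, they could overlap, as they did in Bst2 and Ifitm3. Below are the 200 bases before the start, 5′ to 3′ on the gene's strand, for 6 members that hold such letters, with letters of either element in capitals. These 6 do not stand for every role in the list, and other members, such as Irf7 and Xaf1, hold letters of neither element. Irf1 holds a GAS, Irgm1, Gbp2, Ifit1 and Ifit3 hold 1 or more ISREs, and Isg15 holds 3 overlapping ISREs. A match of letters is not a shown binding site.
Irf1, chr11:53769814-53770013, + strand: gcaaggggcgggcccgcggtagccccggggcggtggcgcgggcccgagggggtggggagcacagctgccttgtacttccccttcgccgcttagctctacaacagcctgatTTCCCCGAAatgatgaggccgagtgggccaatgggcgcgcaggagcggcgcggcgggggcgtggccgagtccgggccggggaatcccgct
Irgm1, chr11:48871421-48871620, - strand: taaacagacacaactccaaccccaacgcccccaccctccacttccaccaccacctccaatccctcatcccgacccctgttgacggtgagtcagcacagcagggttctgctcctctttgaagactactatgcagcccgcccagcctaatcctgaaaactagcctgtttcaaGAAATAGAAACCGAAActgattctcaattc
Gbp2, chr3:142620463-142620662, + strand: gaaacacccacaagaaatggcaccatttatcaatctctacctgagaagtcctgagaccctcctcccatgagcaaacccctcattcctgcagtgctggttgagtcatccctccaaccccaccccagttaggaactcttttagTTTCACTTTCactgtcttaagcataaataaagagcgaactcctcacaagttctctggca
Ifit1, chr19:34640689-34640888, + strand: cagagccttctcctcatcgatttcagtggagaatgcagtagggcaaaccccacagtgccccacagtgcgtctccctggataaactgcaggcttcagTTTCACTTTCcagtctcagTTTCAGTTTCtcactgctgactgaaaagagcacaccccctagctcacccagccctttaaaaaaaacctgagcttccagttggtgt
Ifit3, chr19:34583329-34583528, + strand: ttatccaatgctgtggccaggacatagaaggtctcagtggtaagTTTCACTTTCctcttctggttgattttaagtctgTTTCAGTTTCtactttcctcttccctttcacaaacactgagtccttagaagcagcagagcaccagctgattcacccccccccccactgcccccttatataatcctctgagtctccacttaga
Isg15, chr4:156200819-156201018, - strand: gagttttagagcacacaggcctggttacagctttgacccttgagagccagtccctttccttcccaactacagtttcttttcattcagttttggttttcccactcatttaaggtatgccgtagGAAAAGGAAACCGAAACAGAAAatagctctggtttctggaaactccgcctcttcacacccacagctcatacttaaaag

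**Figure D1:**
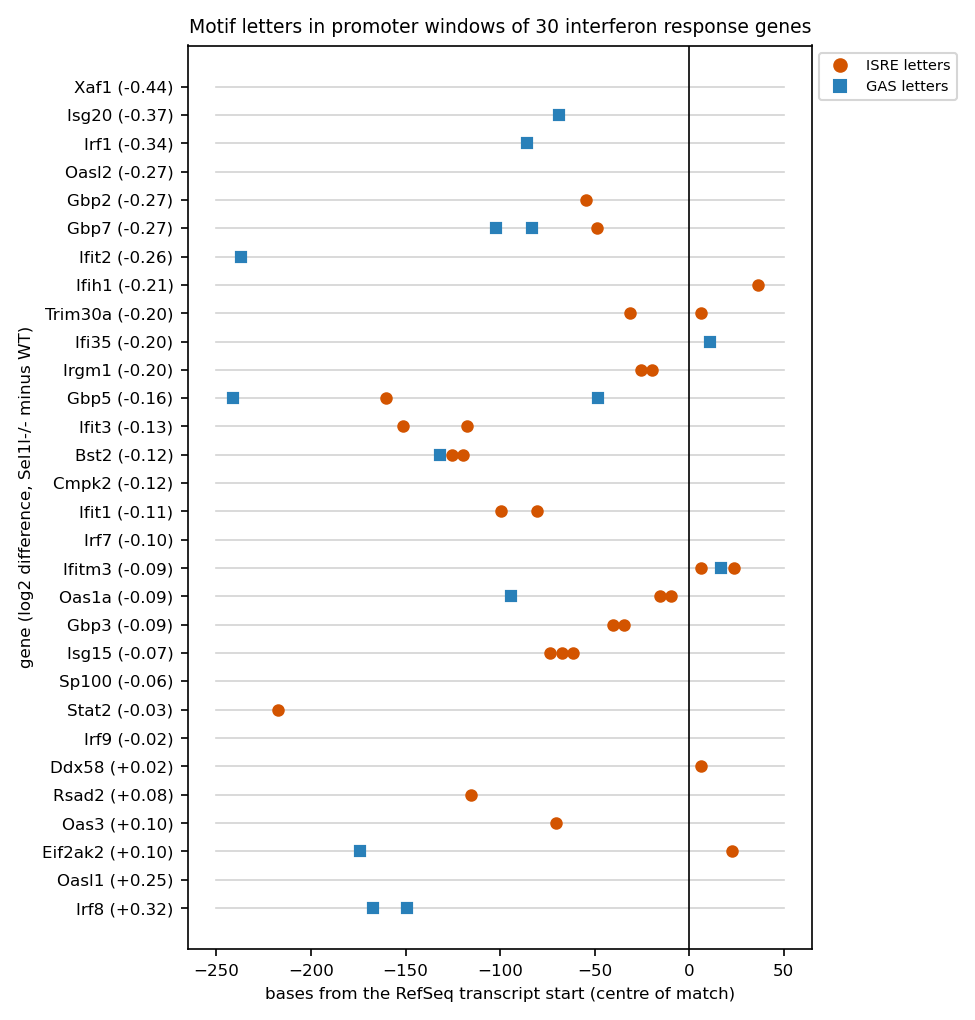
Centres of ISRE letters (circles) and GAS letters (squares) in bases from the RefSeq transcript start, for the 30 genes with a window, ordered by their log2 difference (in brackets, Sel1l-/- minus WT). Genes with ISRE letters run from Gbp2 (-0.27) to Eif2ak2 (0.10), and Xaf1 (-0.44) and Irf8 (0.32) at the ends have none.

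The genotype labels were checked on Sel1l itself, whose log2 expression was 9.78 ± 0.21 in Sel1l-/- mice and 10.57 ± 0.07 in WT mice (SD, n = 4 each; log2 difference -0.79, standard error 0.105, limma adjusted p = 0.0109). The call of Sel1l was lost with the code letter (adjusted p = 0.151) or the code number (adjusted p = 0.0813) of the mice in the labels as a block, at differences of -0.98 and -0.80. Letter E holds only WT mice and letter G only Sel1l-/- mice, so a difference with the letter as a block rests on the 3 mice of letter F. Which part of Sel1l the probes read is not given in the labels. The 9 measured adipocyte markers averaged 12.25 to 12.63 on the log2 scale in Sel1l-/- mice and 12.53 to 12.80 in WT mice, with all 9 differences negative (median -0.11). None passed the threshold, with Adipoq closest (log2 difference -0.56, adjusted p = 0.0753), then Cidec (-0.11, adjusted p = 0.430), and Adipoq passed with the replicate number as a block (adjusted p = 0.0204). Over all genes 324 of 18820 (1.72%) passed an adjusted p of 0.05 and 129 (0.685%) were lower in Sel1l-/- mice. With the replicate number of the mice as a block 358 were higher and 367 lower. That number was taken as a pairing from these same values, and no label gives it as one. Array medians were 6.10 to 6.14 in Sel1l-/- and 6.05 to 6.08 in WT mice. The labels do not say that mice of a group came from separate litters. The p-values set a group difference against the spread between these mice within their groups, whether or not the mice were littermates.

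Of the 39 interferon response genes, 1 fell in Sel1l-/- adipose tissue, Ifi27l2a, and none rose. This is read against 1.72% of all genes called in either direction and 0.685% called lower. The other 38 genes had adjusted p-values between 0.157 and 0.987. An unadjusted p under 0.05 was found for 3 members, where 15.0% of all genes had one. The differences were small and mostly below 0. They were negative for 32 of 39 members, against 51.2% of all genes, with a median log2 difference of -0.11 against 0.00 for all genes. Without Ifi27l2a the median of the other 38 was also -0.11. The median of all 39 was -0.19 without Sel1l-/- mouse 3 and -0.07 without WT mouse 3. With each array centred on its median, which shifts the median of all genes to -0.05, 33 of 39 members were negative with a median of -0.15, and 64.2% of all genes were negative. For 37 of the 39 genes the 95% interval of the log2 difference lay between -1 and 1, and for 20 it lay between -0.5 and 0.5. The exceptions to the wider bound were Ifi27l2a and Irf8, whose interval ran from -0.39 to 1.02.

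**Figure D2:**
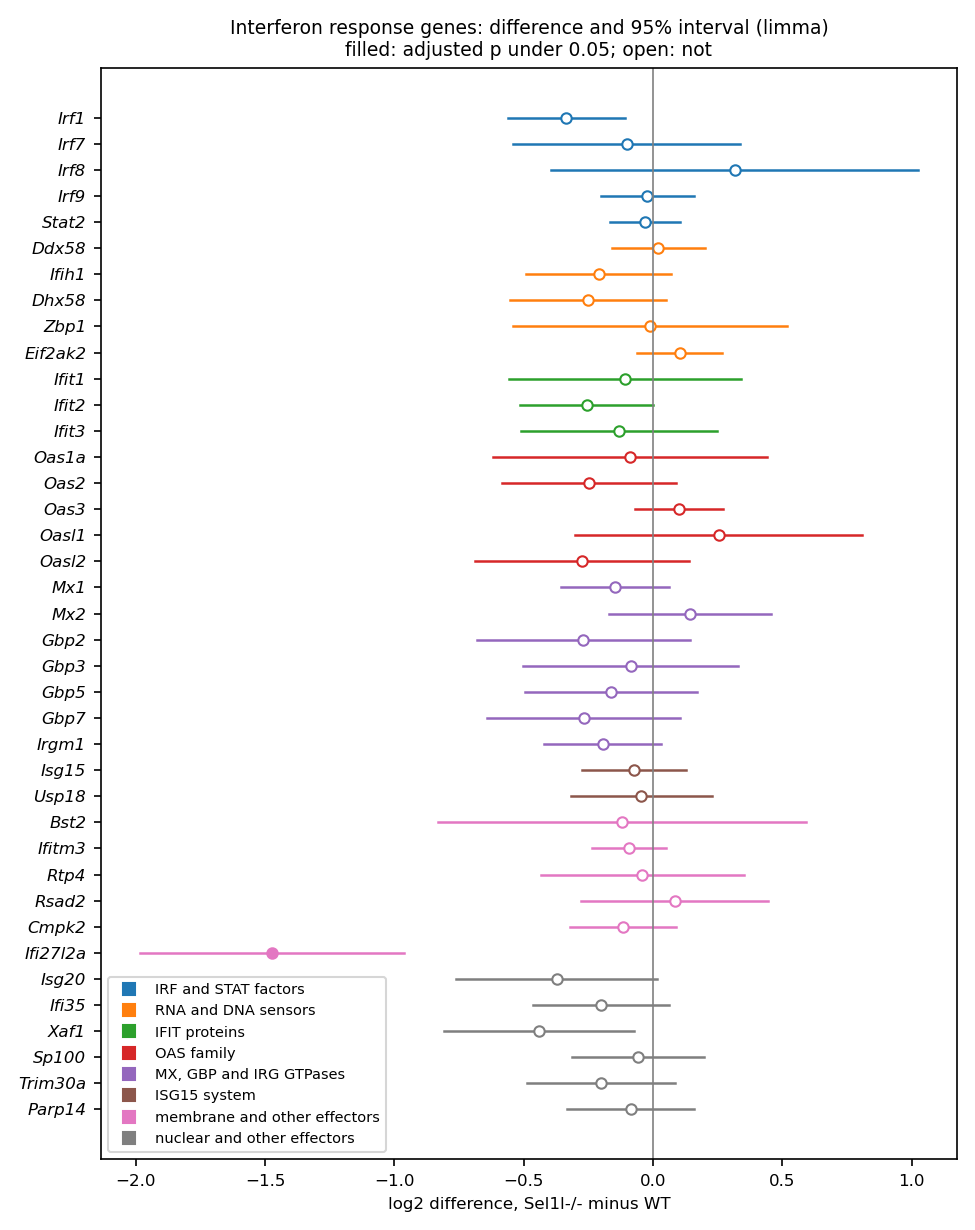
Log2 difference (Sel1l-/- minus WT, horizontal axis) of each of the 39 interferon response genes with its 95% interval from limma, grouped by role (colours). The filled point is Ifi27l2a at -1.47, the single member past an adjusted p of 0.05. All other intervals but those of Irf1 and Xaf1 reach or cross 0.

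**Figure D3:**
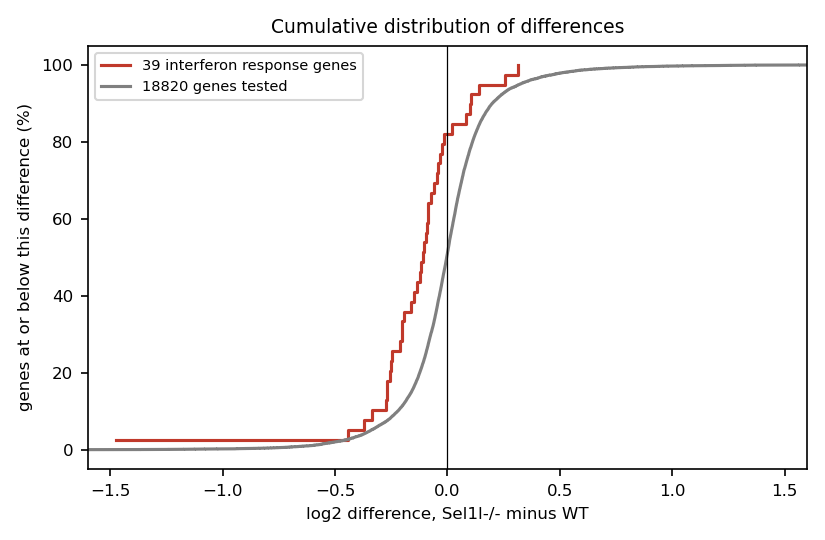
Cumulative share of genes (vertical axis, percent) at or below a log2 difference (horizontal axis, Sel1l-/- minus WT, shown from -1.6 to 1.6) for the 39 interferon response genes and all 18820 genes. The curve of the interferon genes crosses 0 at 82.1%, and that of all genes at 51.2%.

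Ifi27l2a encodes a small hydrophobic protein of the interferon-induced ISG12 family. Its log2 expression was 10.81, 9.94, 10.58 and 10.31 in Sel1l-/- mice 1 to 4, against 11.97, 11.42, 12.31 and 11.83 in WT mice 1 to 4. Every Sel1l-/- mouse lay below every WT mouse. The means were 10.41 ± 0.38 in Sel1l-/- mice and 11.88 ± 0.37 in WT mice (SD, n = 4 each). That is 2.78-fold lower in Sel1l-/- mice (log2 difference -1.47, standard error 0.22, limma adjusted p = 0.0200). Mice of the same replicate number differed by -1.16, -1.49, -1.73 and -1.52. The call was lost without WT mouse 1 (adjusted p = 0.0698), Sel1l-/- mouse 2 (0.0543) or Sel1l-/- mouse 3 (0.0561), and the log2 difference over all fits that left out 1 mouse ran from -1.63 to -1.32. It was also lost when the code letter or the code number entered the fit as a block, at similar differences of -1.46 (adjusted p = 0.343) and -1.44 (adjusted p = 0.125).

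The fall of Ifi27l2a was set beside its chromosomal neighbours, a comparison added after its value was seen. In the gene order of the RefSeq table (GRCm38.p6), the 3 protein-coding genes on either side of it are Asb2, Otub2, Ddx24, Ppp4r4 and its relatives Ifi27 and Ifi27l2b. None of these 6 passed the threshold, but only 1.72% of all genes did, so little can be read from that count. The smallest p of the 6 was that of Otub2 (log2 difference 0.18, unadjusted p = 0.035 and adjusted p = 0.287 by limma). Ifi27, of the same family, had log2 values of 11.84, 11.82, 11.81 and 11.52 in Sel1l-/- mice, against 11.60, 11.68, 11.45 and 11.62 in WT mice (log2 difference 0.16, adjusted p = 0.448). Ifi27l2b averaged 5.34 ± 0.15 in Sel1l-/- mice and 5.53 ± 0.51 in WT mice (SD, n = 4 each; log2 difference -0.19, adjusted p = 0.766). Differences between Ifi27l2a and these relatives were not tested. Ifi27l2a and Sel1l are on the same chromosome in that table, with 51 protein-coding genes between them.

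Among the transcription factors of the response, Irf1, which is itself induced by interferon gamma and binds ISRE-like DNA, came closest to the threshold. It read 8.85, 8.88, 8.94 and 8.78 in Sel1l-/- mice 1 to 4, against 9.24, 9.13, 9.45 and 8.97 in WT mice 1 to 4. Here too every Sel1l-/- mouse was below every WT mouse, but the difference did not pass the threshold (log2 difference -0.34, standard error 0.10, adjusted p = 0.157). Irf1 and Ifi27l2a were the 2 members of 39 with such groups, where 5.07% of all genes had Sel1l-/- mice all below WT mice. Irf1 was also the one member with a further probe set, which gave a difference of -0.19 with overlapping groups. Stat2 and Irf9, which belong to the complex that binds the ISRE, had small log2 differences, -0.03 (95% interval -0.17 to 0.10) and -0.02 (-0.20 to 0.16). Irf7, which amplifies the production of type I interferon, had one of -0.10 (adjusted p = 0.855). Irf8, a factor of macrophages, dendritic cells and B cells, had 8.22, 8.58, 8.53 and 9.09 in Sel1l-/- mice, against 7.84, 8.67, 7.66 and 8.99 in WT mice (log2 difference 0.32, adjusted p = 0.703). Its WT mice 1 and 3 were low and the groups overlapped. The 14 macrophage markers were on average 10.12, 10.47, 10.46 and 10.82 in Sel1l-/- mice 1 to 4, against 9.90, 10.47, 9.99 and 10.48 in WT mice 1 to 4, and their part in Irf8 was not tested.

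The sensors of foreign nucleic acid did not pass the threshold. Dhx58 (LGP2), which tunes the RNA sensors, was 7.20, 7.37, 7.67 and 7.47 in Sel1l-/- mice 1 to 4, against 7.44, 7.59, 7.96 and 7.73 in WT mice 1 to 4. Its groups overlapped, while the differences between mice of the same number were close to each other, between -0.29 and -0.23. The adjusted p was 0.428, and 0.0609 with the replicate block, the smallest of any member but Ifi27l2a in that fit. Ifih1 (MDA5), a sensor of long double-stranded RNA, was 8.80, 9.02, 9.14 and 8.76 in Sel1l-/- mice 1 to 4, against 9.06, 9.10, 9.43 and 8.97 in WT mice 1 to 4 (adjusted p = 0.485). WT mouse 3 stood highest and Sel1l-/- mouse 4 lowest. Ddx58 (RIG-I), a sensor of RNA ends, had a log2 difference of 0.02 (95% interval -0.16 to 0.20), but one of -0.02 with arrays centred on their medians. Eif2ak2 (PKR), which halts translation when it binds double-stranded RNA, had one of 0.10 (-0.06 to 0.27). Zbp1, a sensor of nucleic acid in the Z form, had one of -0.01, with a wide interval from -0.54 to 0.52.

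The IFIT proteins, which bind foreign RNA and block its translation, had log2 differences of -0.11 (Ifit1), -0.26 (Ifit2) and -0.13 (Ifit3). Ifit2 was 7.23, 7.35, 7.71 and 7.25 in Sel1l-/- mice 1 to 4, against 7.50, 7.68, 7.75 and 7.64 in WT mice 1 to 4 (adjusted p = 0.337). Sel1l-/- mouse 3 lay within the WT values, and the other Sel1l-/- mice lay below all of them. Ifit1 was 7.05, 7.57, 7.75 and 7.46 in Sel1l-/- mice 1 to 4, against 7.05, 7.70, 7.82 and 7.70 in WT mice 1 to 4 (adjusted p = 0.848), so that mouse 1 was the low one of both groups. The Ifit1 and Ifit3 promoters printed above each hold a pair of matches to the ISRE letters. The 95% intervals of both differences include 0 (-0.56 to 0.34 for Ifit1, -0.51 to 0.25 for Ifit3). So do those of all other members but Ifi27l2a, Irf1 and Xaf1, with or without such letters.

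The 5 measured genes of the OAS family, which holds the synthetases of the oligoadenylate that activates the nuclease RNase L and proteins like them, did not move one way. Oas2 was 7.45, 7.60, 7.97 and 7.74 in Sel1l-/- mice 1 to 4, against 7.85, 7.87, 8.30 and 7.72 in WT mice 1 to 4 (adjusted p = 0.50), with overlapping groups. The differences were -0.09 for Oas1a, 0.10 for Oas3, 0.25 for Oasl1 and -0.27 for Oasl2. Oas1a had the widest spread of the family in Sel1l-/- mice, with 5.61 in mouse 1 and 6.83 in mouse 4.

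Among the MX, guanylate-binding and immunity-related GTPases, 6 of 7 measured genes had negative differences and none passed the threshold. Irgm1, an immunity-related GTPase that acts on membranes and autophagy of microbes, was 7.97, 8.19, 8.45 and 8.26 in Sel1l-/- mice 1 to 4, against 8.33, 8.41, 8.51 and 8.40 in WT mice 1 to 4 (adjusted p = 0.418). Sel1l-/- mouse 3 again lay within the WT values, and the others lay below them. Gbp7, a guanylate-binding protein, was 9.05, 9.07, 9.38 and 8.73 in Sel1l-/- mice 1 to 4, against 9.19, 9.38, 9.68 and 9.06 in WT mice 1 to 4 (adjusted p = 0.506), with mouse 3 highest in both groups. Gbp2, Gbp5 and Gbp3 had differences of -0.27, -0.16 and -0.09, and in each of them Sel1l-/- mouse 4 was the lowest of all 8 mice. Mx1, whose gene is known to be defective in C57BL/6 mice, had a difference of -0.15, and Mx2 one of 0.14. Members of these families resemble each other in sequence, and how far their probe sets read relatives was not tested.

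Isg15, a ubiquitin-like protein that interferon-induced enzymes attach to other proteins, was 4.81, 4.73, 4.71 and 4.50 in Sel1l-/- mice 1 to 4, against 4.69, 4.88, 4.85 and 4.63 in WT mice 1 to 4. These values lay little above each array's 25th percentile of 4.33 to 4.37, where array values respond weakly to RNA. Its log2 difference was -0.07 (95% interval -0.27 to 0.13). Usp18, the protease that removes Isg15 and restrains the type I receptor, had one of -0.05 (-0.32 to 0.23).

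The remaining effectors had mostly negative differences. Xaf1, a partner of the apoptosis inhibitor XIAP, was 7.92, 8.28, 8.47 and 7.67 in Sel1l-/- mice 1 to 4, against 8.51, 8.64, 8.43 and 8.53 in WT mice 1 to 4. Sel1l-/- mouse 3 again lay within the WT values, the other Sel1l-/- mice lay below them, and the adjusted p was 0.246. Isg20, an exonuclease of single-stranded RNA, was 9.76, 9.54, 9.77 and 9.14 in Sel1l-/- mice 1 to 4, against 9.92, 9.79, 10.29 and 9.70 in WT mice 1 to 4 (log2 difference -0.37, adjusted p = 0.355). The groups overlapped, with WT mouse 3 highest and Sel1l-/- mouse 4 lowest. Ifi35, a leucine zipper protein of the cytosol, was 8.66, 8.64, 8.71 and 8.18 in Sel1l-/- mice 1 to 4, against 8.73, 8.68, 8.79 and 8.80 in WT mice 1 to 4 (adjusted p = 0.480), and Sel1l-/- mouse 4 was the low one, at -0.62 from WT mouse 4, where the other pairs differed by -0.08 to -0.04. Trim30a, which restrains Toll-like receptor signalling, had a difference of -0.20, Sp100, a protein of nuclear bodies, had one of -0.06, and Parp14, an ADP-ribosyltransferase, had one of -0.09. Of the membrane proteins, Ifitm3, which blocks virus entry, had one of -0.09 (95% interval -0.24 to 0.05), and Bst2 (tetherin), which holds virus particles at the cell surface, had one of -0.12 with an interval from -0.83 to 0.59. Rsad2 (viperin), which makes a nucleotide that stops viral RNA synthesis, had one of 0.08, and Cmpk2, a mitochondrial nucleotide kinase encoded beside it, had one of -0.12. Rtp4, a chaperone of cell surface receptors, had one of -0.04.

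**Figure D4:**
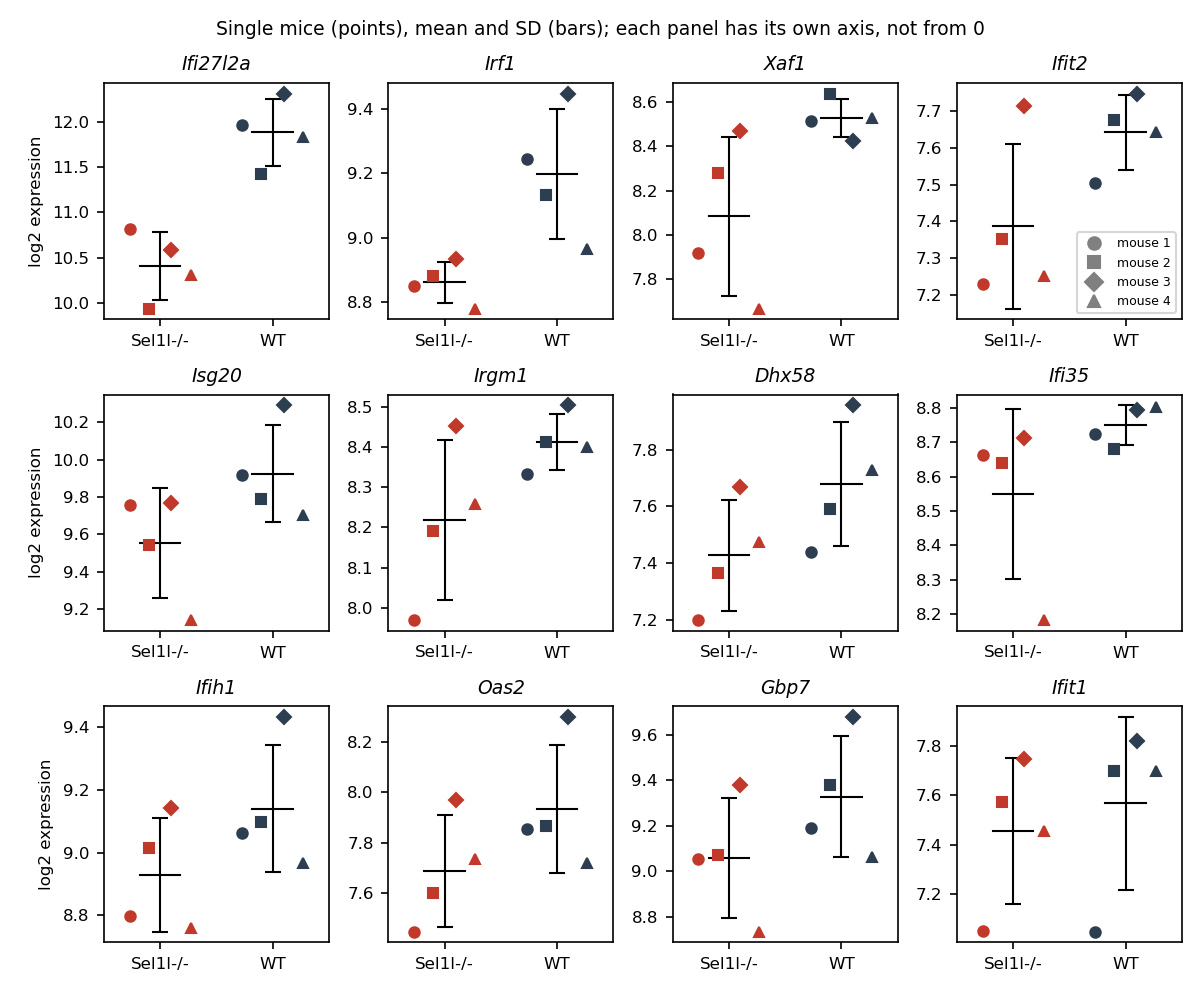
Log2 expression (vertical axes, each with its own range) of the 11 members with the smallest p and of Ifit1, in Sel1l-/- mice (left of each panel) and WT mice (right). Points are single mice, with a shape for each replicate number, and bars are mean and SD. The groups stand apart in Ifi27l2a and Irf1 and overlap in the other panels.

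The interferon response genes varied within each genotype. The within-group SD, pooled over both groups, had a median of 0.22 over the 39 members, against 0.13 over all genes. This median was 0.28 over the 84 cell type markers and 0.15 over the 130 pathway genes. A spread above that of all genes was therefore not particular to the members. Of all genes, 3461 lay at or under the lower quartile on every array, where values are compressed, and no member did. Sel1l-/- mouse 3 was the highest Sel1l-/- mouse in 31 of 39 members (79.5%), and in 19.8% of all genes. WT mouse 3 was the highest WT mouse in 23 of 39 (59.0%), and in 26.8% of all genes. Sel1l-/- mouse 1 was the lowest of its group in 18 members (46.2%, against 27.9% of all genes) and WT mouse 1 in 17 (43.6%, against 19.7%). Sel1l-/- mouse 4 was the lowest in 15 (38.5%), close to its share of all genes (37.4%). The mean over the members was 8.03, 8.15, 8.37 and 8.09 in Sel1l-/- mice 1 to 4, against 8.17, 8.30, 8.42 and 8.31 in WT mice 1 to 4, so the groups overlapped. Ifi27l2a did not follow Sel1l-/- mouse 3, since mouse 1 was the highest Sel1l-/- mouse there. Among the other exceptions were Bst2, Oas1a, Oasl1 and Irf8, which were highest in Sel1l-/- mouse 4.

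**Figure D5:**
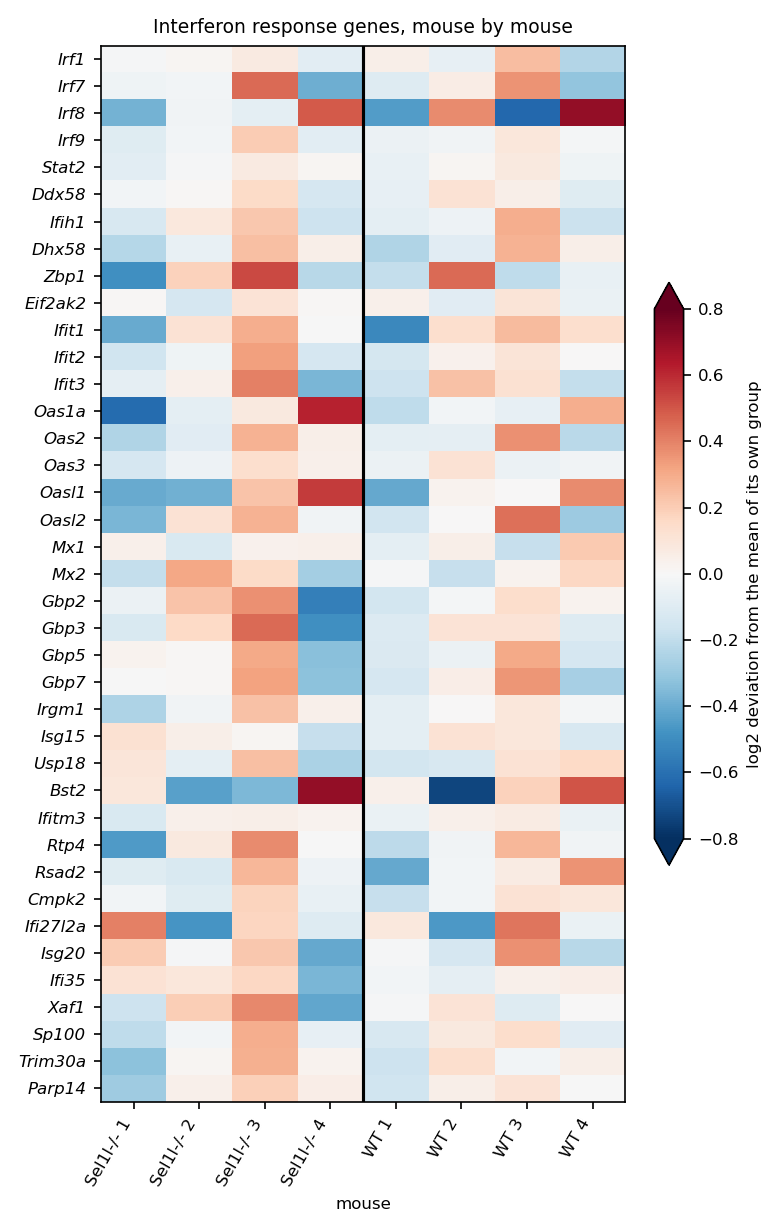
Deviation of each mouse (columns, Sel1l-/- left of the line, WT right) from the mean of its own group, on the log2 scale, for the 39 interferon response genes (rows, by role). Mouse 3 of each genotype is mostly red, above its group's mean, with medians of 0.23 in Sel1l-/- and 0.11 in WT.

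The direction of the list depended on which mice were set against each other. Of the 39 members, 29, 34, 21 and 31 were lower in the Sel1l-/- mouse in the pairs of replicate number 1, 2, 3 and 4. Over all genes, 53.6%, 46.9%, 50.6% and 50.9% were lower in these pairs. Many members shared the same highest mouse, so such counts describe the few mice compared and not 39 separate observations. Each mouse also carries a code with a letter and a number, and the labels do not say what they stand for. Within letter F, with Sel1l-/- mice 1 and 2 and WT mouse 4, 31 members were lower in Sel1l-/- mice (median log2 difference -0.15). There, 47.0% of all genes were lower. Within code number 7, with Sel1l-/- mice 1 and 4 and WT mouse 2, 33 members were lower (median -0.26). Code number 9 held only Sel1l-/- mouse 2 and WT mouse 3, and 35 members were lower there (median -0.18). But within code number 5, with Sel1l-/- mouse 3 and WT mice 1 and 4, 8 were lower and the median was 0.18. The lower median of the list therefore did not hold within code number 5. Ifi27l2a was lower in each, with log2 differences of -1.46 within letter F and -1.32, -0.86 and -2.37 within code numbers 5, 7 and 9. The share of all genes that were lower within a code number was not computed.

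The differences were also set beside the promoter letters. The 18 members with ISRE letters had a median log2 difference of -0.10, with 14 negative, and the 12 with a window but no ISRE letters had one of -0.16, with 10 negative. For GAS letters the medians were -0.16 in 11 members with them and -0.10 in 19 without. These are descriptions, with no test.

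Upstream of these genes, transcripts of the interferons themselves were dim. Of the 14 measured ligands none passed the threshold by limma and none had an unadjusted p under 0.05. The smallest p-values were those of Ifna4 (log2 difference 0.10, adjusted p = 0.550) and Ifna12 (0.27, adjusted p = 0.554), and 8 ligands, Ifna4 among them, lay at or under the 25th percentile on all 8 arrays, so little can be read from them. The receptor chains had log2 differences of 0.12 (Ifnar1, adjusted p = 0.618), -0.14 (Ifnar2, 0.314), -0.03 (Ifngr1, 0.868) and 0.05 (Ifngr2, 0.869). Ifnar2 was lower in every Sel1l-/- mouse than in every WT mouse, with 11.45 ± 0.07 in Sel1l-/- mice and 11.59 ± 0.06 in WT mice (SD, n = 4 each), without passing the threshold. Jak1 averaged 11.47 ± 0.06 in Sel1l-/- mice and 11.22 ± 0.07 in WT mice (SD, n = 4 each), with groups apart and an adjusted p of 0.0850. Of the 16 receptor and signalling genes, 1 thus lay all below WT mice and 1 all above. Over all 18820 genes, 955 lay all below and 982 all above, so groups apart were not particular to this list. In all, 0 of the 16 receptor and signalling genes passed by limma (2 had an unadjusted p under 0.05), and 0 of the 21 genes of nucleic acid sensing (3 had one), where Tlr7, an RNA sensor of endosomes, had a difference of 0.65 (adjusted p = 0.203) and Mavs, the adapter of the RNA sensors, one of -0.20 (adjusted p = 0.241).

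A further list of 56 measured interferon-induced genes outside the 39 had 1 that rose and 1 that fell, where 1.72% of all genes passed, with a median log2 difference of -0.07. An unadjusted p under 0.05 was found for 13 of the 56, where 15.0% of all genes had one. Plscr2, of the phospholipid scramblase family, averaged 10.37 ± 0.28 in Sel1l-/- mice and 9.02 ± 0.30 in WT mice (SD, n = 4 each), 2.53-fold higher (adjusted p = 0.0104). Slfn5, of the Schlafen family, averaged 9.91 ± 0.09 in Sel1l-/- mice and 10.25 ± 0.08 in WT mice (SD, n = 4 each), 1.27-fold lower (adjusted p = 0.0456). Leaving out any 1 mouse ended the call of Slfn5, and Plscr2 did not pass with the code letter (adjusted p = 0.184) or code number (adjusted p = 0.0571) as a block. None of 15 antigen presentation genes passed by limma, none had an unadjusted p under 0.05, and the smallest p was that of Nlrc5, a regulator of class I genes (log2 difference -0.21, adjusted p = 0.439), before that of the proteasome subunit Psmb10 (-0.25, adjusted p = 0.502). The 8 interferon-induced chemokine genes also held none by limma and none at an unadjusted p under 0.05, with Ccl12 at 0.39 (adjusted p = 0.343) and Cxcl9 at -0.47 (adjusted p = 0.379).

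Markers of cells that respond to interferon were read beside these values. In tissue RNA, fewer cells of a type and less RNA per cell cannot be told apart. The counts below stand beside shares over all genes of 1.72% past the threshold by limma, 15.0% at an unadjusted p under 0.05 and 51.2% negative. The 10 endothelial markers averaged 9.78 to 10.15 in Sel1l-/- mice and 10.31 to 10.53 in WT mice, with all 10 differences negative and at an unadjusted p under 0.05 (median -0.37) and 1 past the threshold, Pecam1 (log2 difference -0.39, adjusted p = 0.0290). Tek followed (-0.35, adjusted p = 0.0632, and 0.0437 with the replicate block, which called 9 markers of all cell types lower in place of 2). Of 14 macrophage markers 13 had positive differences (median 0.24), 0 passed by limma and 1 had an unadjusted p under 0.05, Mertk, at -0.35 (adjusted p = 0.170), before Mrc1, at 0.36 (adjusted p = 0.400). Their averages ran from 10.12 to 10.82 in Sel1l-/- mice and from 9.90 to 10.48 in WT mice. The 12 markers of T and NK cells averaged 5.37 to 5.69 in Sel1l-/- and 5.29 to 5.93 in WT mice, and 1 passed, Cd2, at a 1.57-fold lower level (adjusted p = 0.0456), before Cd3d, at 0.19 (adjusted p = 0.280). The 5 B cell markers averaged 6.12 to 6.91 in Sel1l-/- and 6.46 to 7.24 in WT mice, with a median difference of -0.52 and none past the threshold (Cd79b at -0.52, adjusted p = 0.351, and Ms4a1 at -0.62, adjusted p = 0.397). The 9 dendritic cell markers averaged 6.57 to 6.95 in Sel1l-/- and 6.30 to 7.21 in WT mice, with Batf3 at -0.34 (adjusted p = 0.508) and Clec9a at 0.41 (adjusted p = 0.520). The 7 neutrophil markers averaged 4.70 to 5.00 in Sel1l-/- and 4.98 to 5.52 in WT mice, with 6 differences negative, Retnlg at -0.46 (adjusted p = 0.479) and S100a8 at -0.97 (adjusted p = 0.536). The 8 fibroblast and progenitor markers averaged 10.25 to 10.61 in Sel1l-/- and 10.38 to 10.75 in WT mice, with Cd34 at -0.27 (adjusted p = 0.162) and Pi16 at -0.31 (adjusted p = 0.2995). The 6 mesothelial markers averaged 9.12 to 9.82 in Sel1l-/- and 9.50 to 10.41 in WT mice, with all 6 differences negative (median -0.37). None of them passed, but with the replicate block Wt1 (-0.44, adjusted p = 0.108, and 0.0382 with the block), whose groups did not overlap, and Upk1b (-0.60, adjusted p = 0.261, and 0.0204 with the block) did. The 4 skeletal muscle markers averaged 5.05 to 5.34 in Sel1l-/- and 5.13 to 5.35 in WT mice, with Acta1 at -0.32 (adjusted p = 0.390) and Myh4 at 0.05 (adjusted p = 0.752). With 1 mouse left out 0 to 2 of these markers were called lower, and neither Pecam1 (adjusted p = 0.399 and 0.153) nor Cd2 (adjusted p = 0.325 and 0.158) passed with the code letter or the code number as a block. The part of these cells in the fall of Ifi27l2a was not tested.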

How the data were processed

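White adipose tissue RNA of 8 mice was measured on 8 arrays, 4 from Sel1l-/- and 4 from WT mice, grouped by the titles. The deposited values are log2 intensities, made by the authors with RMA (no version given) per the submitters' processing notes. RMA corrects background, equalises array distributions and summarises probes. The log2 scale was read from their range, 1.72 to 13.9. Equalised arrays hide a change of most genes in one direction, and dim genes are compressed.

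Of 35556 probe sets, 21218 carried 1 gene symbol in the platform annotation, 1881 carried several, and 12457 were not listed there and stayed unnamed. Each gene took its probe set with the highest mean, 18820 genes in all. Groups were compared across all genes by limma (version 3.58.1, R 4.3.3; functions lmFit and eBayes, two-sided, no block, prior degrees of freedom 2.60), with Benjamini-Hochberg adjustment and a threshold of 0.05. No filter was set. The step was also run on simulated data, whose outcome is not reported here. Noise there was drawn separately for each gene and array, so deviations that many genes of a mouse share were not covered. Figures used Python 3.11.15 and matplotlib 3.10.9.

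The members and lists were chosen with earlier results of these data known. All members, Sel1l, pathway genes past the threshold or the 2 smallest p of a list, the receptor chains and the 2 smallest p of a marker list are named. Same-numbered mice mostly deviated together over all genes (correlations 0.518, 0.107, 0.363 and 0.524). The number in the titles was therefore taken as a pairing. No label says what that number marks, and same-numbered mice share neither code letter nor code number. Mice of different numbers correlated at -0.489 to 0.328, so the 0.107 of number 2 lay within their range. Because the pairing was chosen from these same values, p-values with the replicate block are not separate evidence. Alternatives were the mean of probe sets, centring, blocks, filters on dim genes, array weights, trended robust moderation and leaving out each mouse.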

Additional observations from a re-analysis of the deposited data

Results flagged for a closer look

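In 9 of the 162 groups of 4 mice examined, 1 mouse stood further from the others than Dixon's critical value at 95% allows, which chance gives in about 1 of 20 groups. Of these, 5 were among the 78 groups of interferon response genes. Ifit1 was 7.05 on the log2 scale in WT mouse 1, against 7.70 to 7.82 in the other WT mice. Ifi35 was 8.18 in Sel1l-/- mouse 4, against 8.64 to 8.71 in the other Sel1l-/- mice. Ifitm3 was 12.40 in Sel1l-/- mouse 1, against 12.55 to 12.57 in the others of its group. Mx1 was 5.29 in Sel1l-/- mouse 2, below 5.45 in the others of its group. Oas3 was 5.04 in WT mouse 2, against 4.88 to 4.90 in the other WT mice.

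The other 4 were genes outside the 39. The proteasome subunit Psmb10 was 8.79 in Sel1l-/- mouse 1, and Ifi27, the neighbour of Ifi27l2a, was 11.52 in Sel1l-/- mouse 4, each below the rest of its group. In WT mouse 4 the B cell marker Ms4a1 was low at 5.87 and the neutrophil marker Retnlg was high at 6.18.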

How the results depend on the processing

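Ifi27l2a kept its direction in all 17 alternatives and was the 1 member called wherever any was. It was not called with the code letter as a block (-1.46, 0 members called) or the code number (-1.44, 0 members called), and leaving out a mouse gave -1.63 to -1.32 with 0 to 1 members called. Sel1l was at -0.98 and -0.80 in those blocks, neither called, and at -0.88 to -0.71 with a mouse left out. The same blocks called 7 and 8 genes higher and 13 and 3 lower over all genes, 0 and 0 pathway genes in either direction, and 1 and 0 cell type markers lower. These fits hold fewer residual degrees of freedom. The replicate block, a pairing taken from these same values and given by no label, called 358 genes higher, 367 lower and 9 cell type markers lower. It changed no call of a member. Centring called 119 genes higher and 154 lower. Array weights called 347 higher, 219 lower and 2 pathway genes higher. Without genes under the median level 2 pathway genes were higher and 4 cell type markers lower. Leaving out a mouse gave 66 to 244 genes higher and 31 to 140 lower, 1 to 2 pathway genes higher, 0 lower (Slfn5 was lost each time), and 0 to 2 cell type markers lower. It gave a member median of -0.19 to -0.07 and 25 to 34 negative members.

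Of the 39 members, 22 kept their sign throughout and 17 did not, none of them called, and the cause was not tested. Ddx58 was -0.022 with centring. With the letter block Oasl1 was -0.52, Irf8 -0.59, Rsad2 -0.39, Isg15 0.14, Ifit3 0.041, Irf7 0.18 and Gbp3 0.035. With the number block Usp18 was 0.0029, Irf9 0.009, Rtp4 0.015 and Zbp1 0.035. With array weights Gbp3 was 0.043, Usp18 0.033, Irf9 0.023, Rtp4 0.061 and Zbp1 0.046. Leaving out a mouse gave -0.031 to 0.065 for Ddx58, -0.25 to 0.028 for Irf7, -0.052 to 0.20 for Rsad2, -0.24 to 0.078 for Gbp3, -0.13 to 0.038 for Usp18, -0.09 to 0.0099 for Irf9, -0.17 to 0.11 for Rtp4, -0.19 to 0.15 for Zbp1, -0.36 to 0.048 for Bst2, -0.29 to 0.12 for Oas1a, -0.15 to 0.0084 for Parp14, -0.28 to 0.025 for Ifit1 and -0.16 to 0.0081 for Sp100. The 4 arrays a group limit the precision.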
